A study of Mus musculus with 4 samples.

Results

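The clustered protocadherin genes form 3 neighbouring arrays on mouse chromosome 18, and CTCF and RAD21 peaks over them were described here in gastruloids. Members were all annotated genes whose symbols begin with Pcdha, Pcdhb or Pcdhg and that lie in the 1-Mb window of mm10 that holds the arrays. This gave 58 of 49943 annotated genes, with 14 Pcdha, 22 Pcdhb and 22 Pcdhg genes, of which Pcdhgb8 is annotated as a transcribed pseudogene. Gastruloids are aggregates of mouse embryonic stem cells that elongate and pattern in culture, and they were pooled and fixed 96 h after aggregation.

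CTCF was mapped by ChIPmentation, a chromatin immunoprecipitation in which a transposase adds the sequencing adapters, in 3 genotypes with 1 library each. The wild-type gastruloids carried no edit named in the labels. The InsCBS5-10 gastruloids carried Del at HoxB on 1 allele and Del(i9-13):Ins(CBS5-10) on the other, and the DelCBS7-10 gastruloids had the same alleles with Del(CBS7-10) added. All named edits are at HoxB on chromosome 11, so the protocadherin arrays are unedited in every genotype as the labels give it. RAD21, a subunit of cohesin, was mapped in InsCBS5-10 gastruloids. A further deposited RAD21 list has no sample record, and its identity as wild type rests on its peak names alone, so its values are given apart and it is called the unrecorded RAD21 list. No group had a replicate, so no test between groups was possible and differences between lists have no replicate check.

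Clustered protocadherins are cell-surface adhesion molecules that neurons use to tell their own branches from those of other neurons. In the Pcdha and Pcdhg arrays each variable exon has its own promoter and is spliced to constant exons shared by the array, whereas Pcdhb genes are single-exon genes. CTCF is known to bind most of these promoters and distant enhancers, and cohesin, which extrudes DNA into loops, is known to bring a chosen promoter to an enhancer. In alternate Pcdha genes CTCF is known to bind inside the variable exon as well as at the promoter. The C-type genes Pcdhac1, Pcdhac2, Pcdhgc3, Pcdhgc4 and Pcdhgc5 lie at the ends of the arrays and are regulated differently from the alternate genes.

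The annotation gave gene spans without exons or strand on this chromosome. The Pcdha genes shared an end between 37187657 and 37188897 and the Pcdhg genes between 37840489 and 37841873, so the lower coordinate was taken as the start of each gene in those arrays. The same direction was used for the Pcdhb genes, whose spans were 2340 to 5271 bp long, and a model that holds coding sequence alone would place its start too far downstream. Starts were spaced by a median of 7.44 kb in Pcdha, 7.84 kb in Pcdhb and 5.33 kb in Pcdhg.

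The wild-type CTCF list held 74 peaks in the window, the InsCBS5-10 list 64 and the DelCBS7-10 list 68. The window held 31 peaks of the InsCBS5-10 RAD21 list and 67 of the unrecorded RAD21 list. These came from whole lists of 47931, 34499, 36589, 19610 and 59484 peaks in the same order. Few 1-Mb intervals of the genome, with chromosome 11 left out, were as crowded. Of 2461 intervals with a wild-type CTCF peak, 6 held more than the protocadherin window, and the median interval held 16. More crowded intervals numbered 3 of 2341 for InsCBS5-10 CTCF, 3 of 2343 for DelCBS7-10 CTCF, 5 of 2280 for InsCBS5-10 RAD21 and 47 of 2453 for the unrecorded RAD21 list.

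The peaks were numerous and of middling height. Height is given as fold enrichment, the authors' ratio of signal at the summit over local background, which is read only within a list. The median peak of the window stood at the 48.1st percentile of fold enrichment in the wild-type CTCF list, the 45.0th in InsCBS5-10 CTCF and the 45.5th in DelCBS7-10 CTCF. It stood at the 35.7th percentile of the InsCBS5-10 RAD21 list and the 62.2nd of the unrecorded RAD21 list. The sources used here give no mapping-quality filter, and its effect on peaks in these closely similar genes was not tested.

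**Figure D1:**
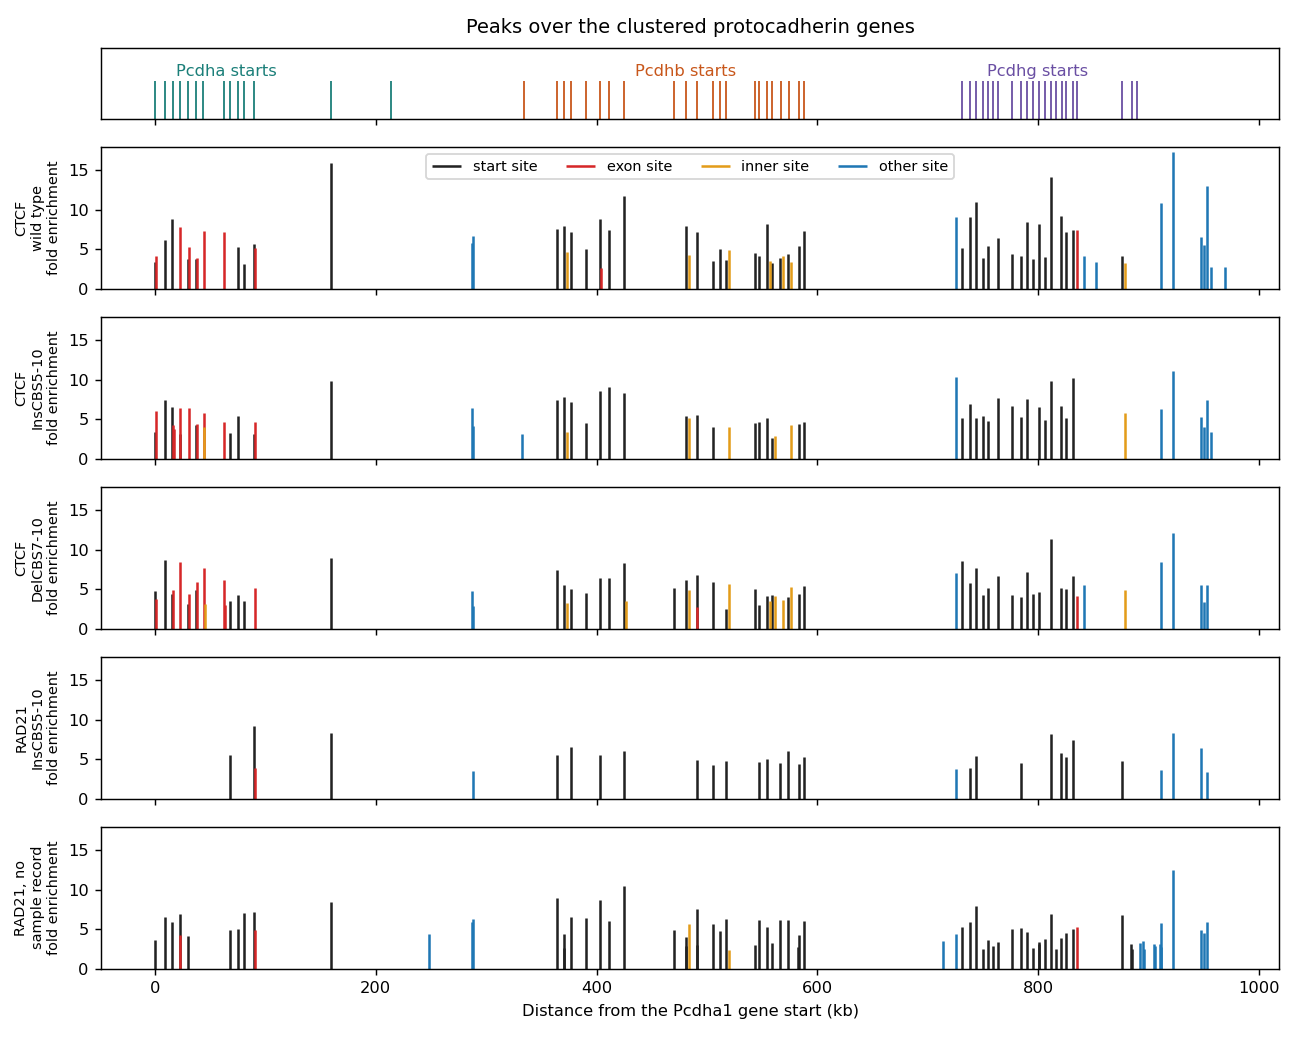
Fold enrichment of each summit (y axis, 1 panel per peak list) against distance from the Pcdha1 gene start in kb, with the member genes in the top panel and the kind of site in colour. Summits follow the 3 arrays, and a stretch of 137 kb between the Pcdhb22 start and the site before Pcdhga1 holds none in the 3 CTCF lists and the InsCBS5-10 RAD21 list.

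A CTCF peak lay within 1000 bp of 50 of the 58 gene starts in wild type, 86.2% (exact Clopper-Pearson 95% interval 74.6 to 93.9, which covers counting error only). The same count was 43 of 58 in InsCBS5-10, 74.1% (61.0 to 84.7), and 48 of 58 in DelCBS7-10, 82.8% (70.6 to 91.4). Over 16221 protein-coding gene starts with a known strand on other chromosomes, the share was 14.8% for the wild-type list, 9.29% for InsCBS5-10 and 11.6% for DelCBS7-10. Protocadherin starts thus had a CTCF peak several times as often as gene starts at large in each list. The CTCF lists with fewer peaks in all also had fewer called starts, and the part of list size in these counts was not tested.

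All 3 arrays were marked at most of their starts. In wild type a CTCF peak lay at 12 of 14 Pcdha, 20 of 22 Pcdhb and 18 of 22 Pcdhg starts. In InsCBS5-10 the counts were 12 Pcdha, 16 Pcdhb and 15 Pcdhg, and in DelCBS7-10 they were 13, 19 and 16. The exact intervals of the 3 arrays overlapped in each CTCF list, so no order of the arrays could be read from these shares. Many of the Pcdha peaks lay after the start, with median summits at 194, 437.5 and 500 bp in wild type, InsCBS5-10 and DelCBS7-10. Summits from 600 bp before to 200 bp after a start were called at 9 of 14 Pcdha genes in each CTCF list. The nonclustered protocadherins, related adhesion genes outside the arrays, had a CTCF peak at 0 of 9 measured starts in each CTCF list. The exact interval of that share runs up to 33.6% and takes in the share of protein-coding starts in each list. No contrast with gene starts at large can be read from it.

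RAD21 was less evenly spread over the arrays in the InsCBS5-10 library. It lay at 24 of 58 starts, 41.4% (28.6 to 55.1), against 3.91% of protein-coding starts. By array the counts were 3 of 14 Pcdha starts (21.4%, 4.66 to 50.8), 13 of 22 Pcdhb starts (59.1%, 36.4 to 79.3) and 8 of 22 Pcdhg starts (36.4%, 17.2 to 59.3). These intervals overlap too. The unrecorded RAD21 list had a peak at 52 of 58 starts, 89.7% (78.8 to 96.1), with 10 Pcdha, 21 Pcdhb and 21 Pcdhg starts, and it also covered 43.7% of protein-coding starts.

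**Figure D2:**
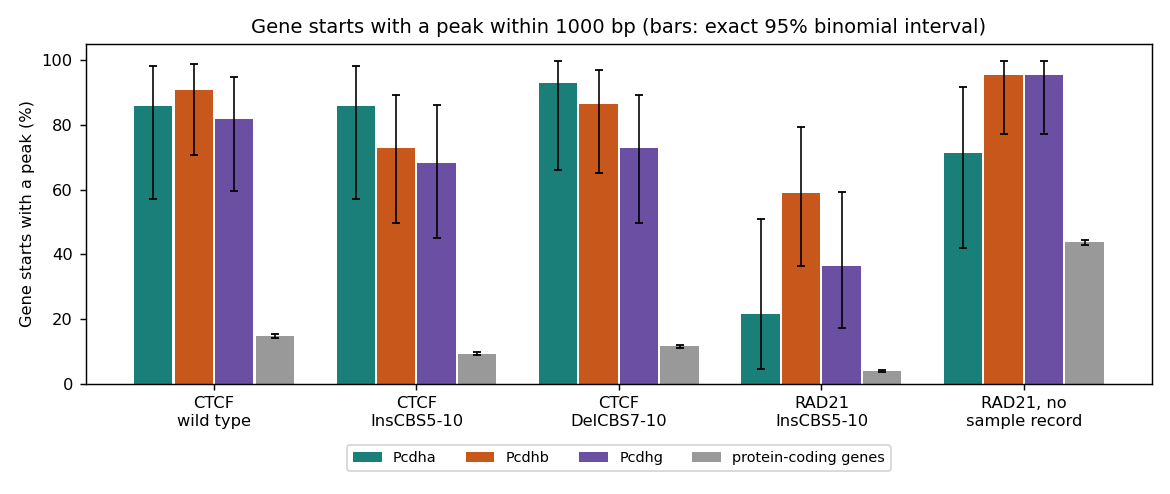
Percent of gene starts with a peak within 1000 bp (y axis) in each of the 5 peak lists (x axis), for Pcdha, Pcdhb and Pcdhg genes and for all protein-coding genes, with exact 95% binomial intervals as error bars. Every array stands above the protein-coding genes in every list, and the Pcdha bar is the lowest of the 3 arrays in both RAD21 lists.

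Of the 58 starts, 41 had a CTCF peak in all 3 genotypes, made up of 11 Pcdha, 16 Pcdhb and 14 Pcdhg genes. A further 7 had it in 2 lists, 4 in 1 list and 6 in none. The strongest starts were among the 41. Pcdhac1, the C-type gene next to the alternate Pcdha genes, spans chr18:37090136-37187657, and its wild-type peak at chr18:37089702-37090122 lay just before the start. Fold enrichment at Pcdhac1 was 15.97 in wild-type CTCF, 9.83 in InsCBS5-10 CTCF, 8.95 in DelCBS7-10 CTCF, 8.32 in InsCBS5-10 RAD21 and 8.47 in the unrecorded RAD21 list. It ranked at the 98.9th, 94.7th, 93.9th, 76.3rd and 88.8th percentile of those lists. Pcdhac1 was thus high in all 3 CTCF lists, and no other Pcdha start in wild type exceeded 8.86, the value of Pcdha3.

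Pcdhgb6, an alternate Pcdhg gene at chr18:37742094-37841873, had fold enrichments of 14.1, 9.85 and 11.3 in the wild-type, InsCBS5-10 and DelCBS7-10 CTCF lists. RAD21 there reached 8.22 in InsCBS5-10 and 7.0 in the unrecorded list. Pcdhb8, a single-exon gene at chr18:37355271-37357610, gave 11.7, 8.38 and 8.33 in the CTCF lists in that order, with RAD21 at 6.10 in InsCBS5-10 and 10.5 in the unrecorded list. These were the highest wild-type values of their arrays, and each of the 3 genes was called in all 5 lists.

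The next strongest wild-type starts were called in all 3 CTCF lists too. In Pcdhg, Pcdhga3 had 10.9, 5.11 and 7.64 in the wild-type, InsCBS5-10 and DelCBS7-10 CTCF lists, and Pcdhgb7 had 9.19, 6.66 and 5.17. In Pcdhb, Pcdhb6 had 8.77, 8.60 and 6.43, and Pcdhb17 had 8.16, 5.21 and 4.12. In Pcdha, Pcdha3 had 8.86, 6.49 and 4.96, and Pcdha4 had 7.78, 6.45 and 8.46. The last Pcdha3 value came from a summit 623 bp after the start, and the Pcdha4 values from summits 525, 551 and 528 bp after it. In the InsCBS5-10 RAD21 list, Pcdhga3 had 5.41, Pcdhgb7 5.86, Pcdhb6 5.55 and Pcdhb17 5.06, whereas Pcdha3 and Pcdha4 had no peak. This split among 6 genes did not hold for whole arrays. Pcdhac1 had RAD21 at 8.32 in that list, and Pcdhgb4 and Pcdhb3, with wild-type CTCF of 8.45 and 7.93, had none.

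The weakest starts were ranked in wild type, and several of them were not low in the other lists. Pcdha11 had 3.14 in wild type and 3.49 in DelCBS7-10 with no InsCBS5-10 CTCF peak, while the unrecorded RAD21 list had 7.06 there. Pcdha6 had 3.89, 4.34 and 5.86 in the wild-type, InsCBS5-10 and DelCBS7-10 CTCF lists and Pcdha1 had 4.1, 6.06 and 4.81. The Pcdha6 summits lay 584, 554 and 593 bp after the start. Those of Pcdha1 lay 442 and 441 bp after it in wild type and InsCBS5-10, and before it, at -155 bp, in DelCBS7-10. In Pcdhb the lowest were Pcdhb18 with 3.31, 2.58 and 4.23, Pcdhb12 with 3.55, 4.06 and 5.86, and Pcdhb14 with 3.61 in wild type and 2.45 in DelCBS7-10. In Pcdhg they were Pcdhga8 with 3.76 in wild type and 4.34 in DelCBS7-10, Pcdhgb1 with 3.87, 5.41 and 4.22, and Pcdhga9 with 3.99 in wild type and 4.96 in InsCBS5-10. Low fold and a missing call went together in part, since Pcdha11, Pcdhb14, Pcdhga8 and Pcdhga9 each lacked a CTCF peak in 1 list.

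**Figure D3:**
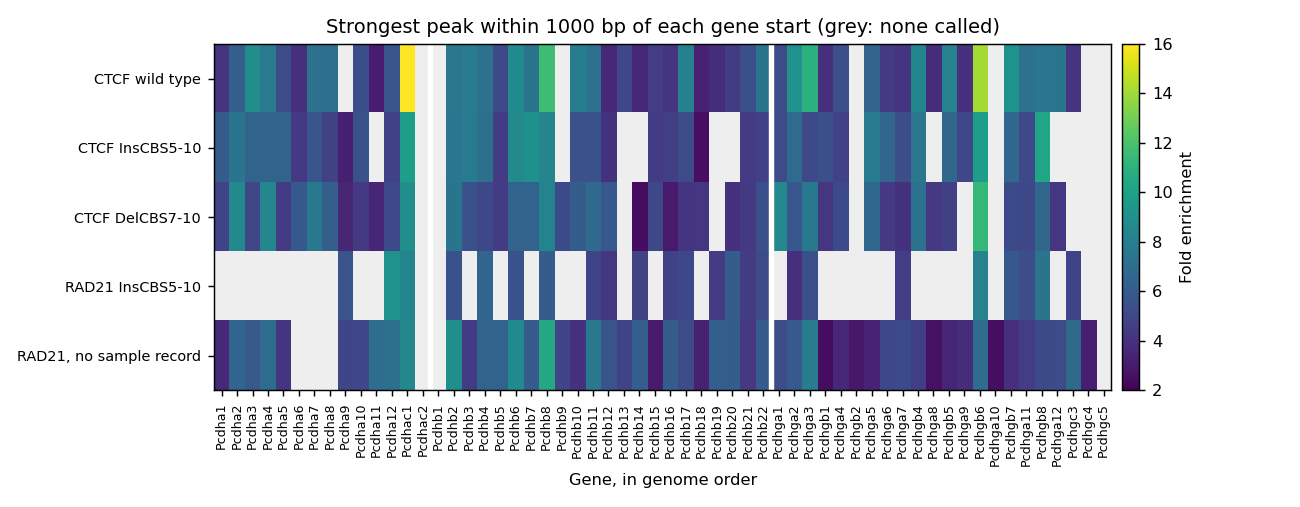
Fold enrichment of the strongest peak within 1000 bp of each gene start, as colour, for the 58 genes in genome order (x axis) and the 5 peak lists (y axis), with grey where no peak was called. Pcdhac2, Pcdhb1 and Pcdhgc5 are grey in all 5 lists, and Pcdha1 to Pcdha8 are grey in the InsCBS5-10 RAD21 list.

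No CTCF peak lay at the starts of Pcdhac2, Pcdhgc4 and Pcdhgc5, 3 of the 5 C-type genes, or at those of Pcdhb1, Pcdhgb2 and Pcdhga10 in any genotype. Pcdhac2, Pcdhb1, Pcdhgc4 and Pcdhgc5 are also the genes known to lack the conserved promoter element that the other members carry. At Pcdhac2, Pcdhb1 and Pcdhgc5 there was no RAD21 peak in either list, and CTCF peaks were absent over long stretches around the first 2 of these. Between the summits at Pcdhac1 and at 37217520, past the end of the Pcdha genes, 128 kb held no wild-type CTCF summit, and 76.3 kb from 37218419 to Pcdhb2 held none either. The InsCBS5-10 CTCF list had 1 weak peak in the latter stretch, with its summit at 37263007 before Pcdhb1 and a fold enrichment of 3.09.

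The unrecorded RAD21 list alone had a peak at the other 3 of these starts, with fold enrichments of 3.20 at Pcdhgc4, 2.91 at Pcdhgb2 and 2.53 at Pcdhga10. The first stood at the 24.4th, the next at the 15.5th and the last at the 4.16th percentile of that list. These are weak peaks of the list that also covered the most protein-coding starts.

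Pcdhgc3, the first C-type gene of the Pcdhg array, had RAD21 without CTCF at its start in InsCBS5-10. CTCF was called at its start in wild type with a fold enrichment of 4.08 and in neither mutant, while RAD21 was called at 4.82 in InsCBS5-10 and at 6.85 in the unrecorded list. A separate CTCF site, 2478 to 2578 bp after the start, was called in all 3 genotypes, with 3.28, 5.78 and 4.96 in the wild-type, InsCBS5-10 and DelCBS7-10 lists, and had no RAD21 peak in either list.

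The other starts with a CTCF peak in 1 or 2 lists lay in all 3 arrays. Pcdhb13 had 4.97 and Pcdhb19 3.85 in wild type alone, and Pcdhb9 had 5.16 in DelCBS7-10 alone. Pcdhb20 had 4.44 in wild type and 3.98 in DelCBS7-10, Pcdhga12 had 7.37 and 4.20 in those lists, and Pcdha9 had 3.24 in InsCBS5-10 and 3.51 in DelCBS7-10. Pcdhga12 stood apart here, since its wild-type value was at the 65.3rd percentile and its summit lay 310 bp after the start, and it had no InsCBS5-10 peak. With 1 library a genotype, a lost call and a peak that narrowly missed the caller's threshold cannot be told apart.

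In the InsCBS5-10 gastruloids, where both proteins were mapped, CTCF and RAD21 were both called at 20 starts, CTCF alone at 23, RAD21 alone at 4 and neither at 11. The 4 starts with RAD21 alone were Pcdhb14, Pcdhb19, Pcdhb20 and Pcdhgc3, with RAD21 fold enrichments of 4.73, 4.50, 6.11 and 4.82. Each of these 4 had a CTCF peak in the wild-type list. Over the 3 arrays together, the median CTCF fold enrichment was 5.41 where RAD21 was also called and 5.74 where CTCF stood alone. By array these medians rest on few genes. They were 4.70 over 3 genes and 6.06 over 9 in Pcdha, and 5.37 over 10 and 4.98 over 6 in Pcdhb. In Pcdhg they were 6.66 over 7 and 6.01 over 8. The 3 Pcdha values were 3.24 at Pcdha9, 4.70 at Pcdha12 and 9.83 at Pcdhac1, so no direction can be read from their median. The Pcdha12 value came from a summit 511 bp after the start. The part of CTCF height in the RAD21 calls was not tested.

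The first 8 genes of the Pcdha array, Pcdha1 to Pcdha8, had CTCF without RAD21 in this genotype. This group was chosen after its values were seen. CTCF was called within 1000 bp of the start at 8 of 8 in each CTCF list, many of the summits lying after the start. Fold enrichments were 3.89 to 8.86 for wild type, 4.34 to 7.39 for InsCBS5-10 and 4.46 to 8.70 for DelCBS7-10. The InsCBS5-10 RAD21 list had a peak at 0 of 8. The unrecorded RAD21 list had 5 of 8, at 3.64 to 6.93, and lacked Pcdha6, Pcdha7 and Pcdha8. Within Pcdha, RAD21 in InsCBS5-10 was called at Pcdha9 with 5.56, Pcdha12 with 9.15 and Pcdhac1 with 8.32, all nearer the shared end of the array than Pcdha8. Pcdha12 carried the highest RAD21 value of the window in that library.

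Peaks with a summit within 1000 bp of a start were then counted in place of starts, and peaks further into the genes were left out. Near Pcdha starts, 23.5% of InsCBS5-10 CTCF peaks overlapped RAD21 of that genotype (6.81 to 49.9), against 41.1% for the same strength classes genome-wide. Strength classes were the 10 deciles of fold enrichment in a list. The share was 62.5% for Pcdhb (35.4 to 84.8) against 49.7%, and 46.7% for Pcdhg (21.3 to 73.4) against 57.4%. Each genome-wide value lay inside the interval of its array. For the whole window 42.2% overlapped (29.9 to 55.2), against 48.2% of all peaks in that list. In the other direction 27 of 31 InsCBS5-10 RAD21 peaks of the window overlapped a CTCF peak, 87.1% (70.2 to 96.4), against 84.8% of all.

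Set against the unrecorded RAD21 list, 78.4% of wild-type CTCF peaks of the window overlapped a RAD21 peak (67.3 to 87.1), and the share over the whole list was 68.7%. The window share fell to 32.4% when 50% of both peaks had to overlap, and the RAD21 peaks of that list were wider, with a median of 605 bp in the window against 302 bp. All 18 wild-type CTCF peaks near Pcdhg starts overlapped (interval from 81.5%), as did 20 of 21 near Pcdhb starts (95.2%, 76.2 to 99.9). Among Pcdha peaks 10 of 16 did (62.5%, 35.4 to 84.8). At equal strength the genome-wide shares were 78.3%, 71.5% and 70.5% for Pcdhg, Pcdhb and Pcdha. Among CTCF peaks within 1000 bp of a start, Pcdha thus had the smallest share under RAD21 in both pairs of lists. Its interval overlaps those of the other arrays in each. That limit takes in Pcdha summits further after the start. At the start sites defined below, 8 of 9 wild-type Pcdha sites had unrecorded RAD21, against 20 of 20 in Pcdhb and 17 of 17 in Pcdhg. Pcdha exon sites, also defined below, had it at 2 of 7. In InsCBS5-10, start sites had RAD21 at 3 of 9 in Pcdha, 10 of 16 in Pcdhb and 7 of 15 in Pcdhg. All 31 InsCBS5-10 RAD21 peaks of the window overlapped a peak of the unrecorded list.

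Summits lay at set distances from the gene starts. Summits of the 5 lists that followed each other within 250 bp were joined to 104 sites and divided by position. The limits were chosen after the summits were seen. Start sites ran from 600 bp before to 200 bp after a gene start, exon sites from there to 1000 bp after it and inner sites from there to 3000 bp after it. There were 58 start sites, 13 exon sites, 11 inner sites and 22 others. The 58 start sites lay at 52 genes. CTCF was called at 49 of these sites in at least 1 list, while 9 were called in the unrecorded RAD21 list alone. Those 9 were not separate RAD21 peaks. At Pcdhb3, Pcdhb10, Pcdhb11, Pcdhb21 and Pcdhgb5 they were further summits of a RAD21 peak whose highest summit lay at a CTCF start site. The rest lay at Pcdhgb2, Pcdhga10 and Pcdhgc4, with the Pcdhgc4 summits in a single peak. In wild type the median position of start-site CTCF summits was -177 bp in Pcdha, -62.5 bp in Pcdhb and -74 bp in Pcdhg, where negative values lie before the gene start. The names describe distance alone, since no exon annotation was used.

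Exon sites were mostly a feature of Pcdha, with 10 of 13. In wild type they lay at Pcdha1, Pcdha4, Pcdha5, Pcdha6, Pcdha7, Pcdha8 and Pcdha12, with a median of 525 bp after the start and a range of 442 to 607 bp. The 7 exon sites called in all 3 CTCF lists were all in Pcdha. Pcdha7 had 7.28, 5.74 and 7.64 at its exon site in the wild-type, InsCBS5-10 and DelCBS7-10 lists, and Pcdha8 had 7.12, 4.69 and 6.23. Neither gene had a CTCF start site in any genotype. Pcdha4 had 7.78, 6.45 and 8.46 at its exon site, and its start site was called in InsCBS5-10 alone among the CTCF lists, at 3.11.

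Of the Pcdha genes with both kinds of CTCF site, the exon site was the higher at 3 of 4 wild-type genes, 4 of 5 for InsCBS5-10 and 3 of 4 for DelCBS7-10. RAD21 was called at more Pcdha start sites than exon sites. In InsCBS5-10 RAD21 lay at 3 start sites and 1 exon site, and in the unrecorded list at 10 and 2. Only 1 Pcdha gene had both kinds of RAD21 site in InsCBS5-10, Pcdha12, and 2 in the unrecorded list, Pcdha4 and Pcdha12. In each of these cases the start site was the higher, which is too few genes to set against CTCF. At Pcdha12 the start site had a RAD21 fold enrichment of 9.15 and the exon site 3.93 in InsCBS5-10, whereas CTCF there was 3.11 at the start site and 4.70 at the exon site.

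Inner sites were mostly a feature of Pcdhb, with 8 of 11. In wild type the Pcdhb inner sites lay 2152 to 2409 bp after the start, with a median of 2248 bp, inside the annotated spans. They were weak. Pcdhb14 had 4.91, 3.96 and 5.62 in the wild-type, InsCBS5-10 and DelCBS7-10 CTCF lists, Pcdhb10 had 4.29, 5.13 and 4.91, Pcdhb3 had 4.62, 3.43 and 3.23, and Pcdhb20 had 3.39, 4.31 and 5.25. These 4 were the Pcdhb inner sites found in all 3 CTCF lists. At Pcdhb14 the inner site was the higher of the gene's CTCF sites in each of the 3 lists, with no start site called in InsCBS5-10.

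**Figure D4:**
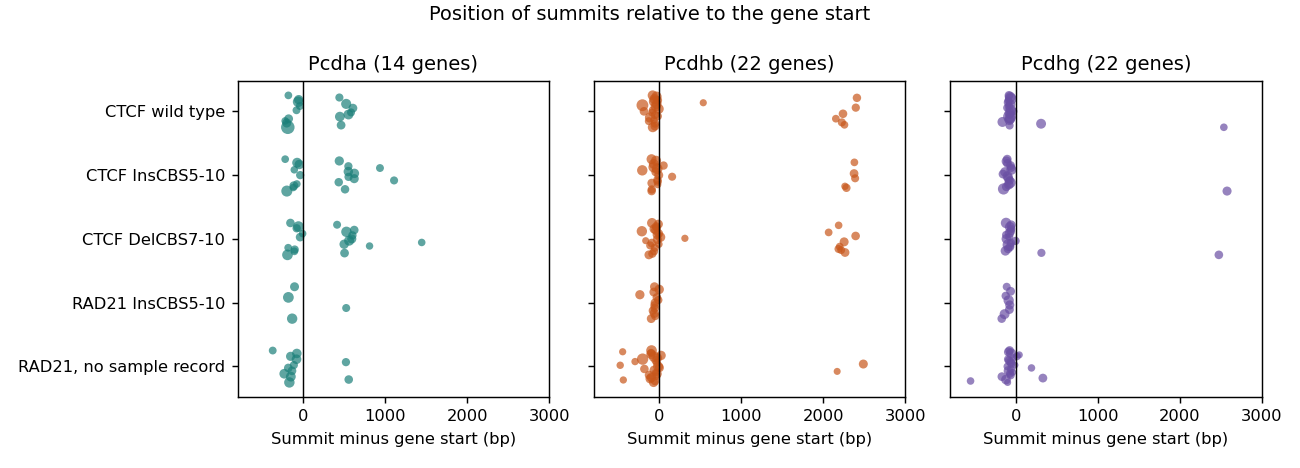
Distance of each summit from its gene start in bp (x axis) for Pcdha, Pcdhb and Pcdhg genes (panels) in the 5 peak lists (rows). CTCF summits fall just before the start in all 3 arrays, again near 525 bp after it in Pcdha and near 2248 bp after it in Pcdhb, while InsCBS5-10 RAD21 summits stay almost wholly at the start.

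RAD21 was found at a larger share of start sites than of sites further into the genes. In InsCBS5-10, 20 of 40 CTCF start sites had a RAD21 summit (50.0%, 33.8 to 66.2), against 1 of 16 exon and inner sites combined (6.25%, 0.158 to 30.2), the exception being the Pcdha12 exon site. With the unrecorded RAD21 list, 45 of 46 wild-type CTCF start sites had one (97.8%, 88.5 to 99.9), against 5 of 16 exon and inner sites (31.3%, 11.02 to 58.7). Those 5 were at Pcdha4, Pcdha12, Pcdhb10, Pcdhb14 and Pcdhga12, and the start site without RAD21 was at Pcdha6. In InsCBS5-10 the intervals are apart only with exon and inner sites combined. Exon sites alone had RAD21 at 1 of 9 (11.1%, 0.281 to 48.2) and inner sites at 0 of 7 (upper limit 40.96), and both intervals overlap that of start sites. Within Pcdha, which held all 9 of those exon sites, RAD21 lay at 3 of 9 start sites and 1 of 9 exon sites. These intervals count sites of 1 library each and do not cover variation between cultures. By peak overlap, 48.2% of all InsCBS5-10 CTCF peaks and 68.7% of all wild-type CTCF peaks had RAD21 in these pairs of lists. CTCF height also fell from start to inner sites. Wild-type median fold enrichments were 5.57 at start sites, 5.27 at exon sites and 4.09 at inner sites. In InsCBS5-10 they were 5.43, 4.70 and 4.00. The part of height in the RAD21 difference was not tested.

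Distances between CTCF and RAD21 summits at shared start sites are bounded in part by the 250 bp used to join summits, so they are given as a description. RAD21 summits lay a median of 34.5 bp from CTCF summits in either direction over 20 sites in InsCBS5-10, with signed distances from -168 to 66 bp. For wild-type CTCF and the unrecorded RAD21 list the median distance in either direction was 16 bp over 45 sites. CTCF summits moved by a median of 38.5 bp in Pcdha, 25 bp in Pcdhb and 36 bp in Pcdhg across the 3 genotypes. In InsCBS5-10 the median distance between the proteins was 60 bp over 3 Pcdha sites, 36.5 bp over 10 Pcdhb sites and 18 bp over 7 Pcdhg sites.

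CTCF peaks of the window were found again between genotypes at least as often as peaks elsewhere. Of the 74 wild-type peaks, 79.7% overlapped an InsCBS5-10 peak (68.8 to 88.2), against 63.2% of all wild-type peaks and 64.7% of those of equal strength. In DelCBS7-10 87.8% were found (78.2 to 94.3), against 65.8% of all and 67.8% at equal strength. Both genome-wide values lay below the interval of the window. In the other direction, 90.6% of InsCBS5-10 peaks of the window were found in wild type (80.7 to 96.5), against 87.7% of all. For DelCBS7-10 peaks this was 94.1% (85.6 to 98.4), against 86.0% of all.

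The wild-type peaks not found in a mutant were lower at the median than those found, with exceptions. The median wild-type fold enrichment was 3.76 for peaks missing from InsCBS5-10 and 6.47 for the rest, and 3.85 for peaks missing from DelCBS7-10 and 5.79 for the rest. The Pcdhga12 peak, at 7.37, was missing from InsCBS5-10, and the 1 peak near Pcdha starts missing from DelCBS7-10 had 5.70. The 15 missing peaks included 2 near Pcdha starts, 5 near Pcdhb starts and 3 near Pcdhg starts, with the other 5 further from any start. Both mutant lists are shorter than the wild-type list, and a peak near the caller's threshold and a peak that was lost cannot be told apart in them.

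Between and beyond the arrays, 22 sites lay outside the 3 classes above, and the 3 strongest in wild type were near or past the shared Pcdhg end. The highest CTCF peak of the window, at chr18:37852051-37852568 inside Diaph1, which encodes an actin-nucleating formin, had fold enrichments of 17.3, 11.1 and 12.1 in the wild-type, InsCBS5-10 and DelCBS7-10 lists. RAD21 there was 8.37 in InsCBS5-10 and 12.5 in the unrecorded list. A further site in Diaph1, with its summit at 37883677, had 13.0, 7.41 and 5.53 for CTCF and 3.35 and 5.90 for RAD21. At 37841456, inside the spans of the Pcdhg genes close to their shared end, CTCF was 10.9, 6.34 and 8.43 and RAD21 3.70 and 5.79. All 3 sites were called in all 5 lists.

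A site before Pcdhga1, with its wild-type peak at chr18:37655395-37655765, bounded the long stretch between the Pcdhb and Pcdhg arrays that held no peak in the CTCF lists and the InsCBS5-10 RAD21 list. CTCF was 9.08, 10.4 and 7.11 there and RAD21 3.83 and 4.46, so in both mutant CTCF lists it stood above the Diaph1 site at 37883677. Between the last Pcdha end and Pcdhb1, where a Pcdha enhancer is known to lie, 2 sites stood close together. The one at 37218419 had CTCF of 6.62, 4.08 and 2.86 and RAD21 of 3.51 and 6.28. The one at 37217520 had CTCF of 5.79, 6.43 and 4.83, with RAD21 of 5.89 in the unrecorded list alone. The unrecorded RAD21 values of both sites were summits of a single peak at 37217447-37218743. Whether either site is that enhancer was not tested.

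Of the 22 sites, 9 were called in the unrecorded RAD21 list alone. One lay at 37178508, inside the spans of the Pcdha genes near their shared end, with a fold enrichment of 4.36, and 1 lay in Taf7, a subunit gene of the general transcription factor TFIID, with 3.50. The other 7 lay between Pcdhgc5 and the region just past the shared Pcdhg end, at 2.51 to 3.52. The median of that whole list was 4.21, so 8 of the 9 were below it and the site at 37178508 was above it. No CTCF list had a summit at any of the 9, but they were not 9 separate RAD21 peaks. Those at 37840880 and 37841931 were further summits of the RAD21 peak at 37840711-37842027, which also held the CTCF site at 37841456. Those at 37835623 and 37836268 shared a single RAD21 peak.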

How the data were processed

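Per the submitters' processing notes, processing used cutadapt 4.1, MACS2 2.2.7.1 and mm10. The peak names show an mm10 edited at HoxB on chromosome 11. Not given in the sources used here were the aligner, mapping-quality filter, control, options and read depths, so the depth behind a peak is unknown. The deposited lists give, per the narrowPeak layout, fold enrichment (a ratio over local background within the library), −log10 p and −log10 q values and the summit offset in bp, all as the authors' own values. For the unrecorded RAD21 list only the peak names were at hand.

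Entries with the same interval were collapsed to their strongest summit. A gene start counted as called with a summit within 1000 bp, and peaks as shared with an overlap of 1 bp. Member spans came from RefSeq GRCm38.p6, matched by symbol (58 of 58). The comparison set was 16221 protein-coding genes with strand, none of them on chromosomes 11 or 18. Shares have exact Clopper-Pearson 95% intervals. With 1 library per group no test was made. The genes named were the C-type genes, Pcdhb1, the 3 highest and lowest wild-type starts per array, starts lacking CTCF in any list and the 5 strongest sites between genes. Members, lists and classes were chosen with earlier results of these data known. The planned count of letters in promoters was not run. Python 3.11.15, numpy 2.4.6, pandas 2.3.3 and scipy 1.17.1 were used, and the overlap and counting code was tested on simulated data. Other start distances, overlaps and q-value thresholds were tried.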

Additional observations from a re-analysis of the deposited data

How the results depend on the processing

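Over 21 results, 44 alternatives were computed, of which 36 stayed close to the reported value and 8 moved. The genome-wide shares were not recomputed under the alternatives, so the comparisons with them were not rechecked. Requiring an overlap of 50% of both peaks lowered the shares of window CTCF peaks found in another list to 62.2% for wild type in InsCBS5-10, 71.6% for wild type in DelCBS7-10, 71.9% for InsCBS5-10 in wild type, 75.0% for InsCBS5-10 in DelCBS7-10, 77.9% for DelCBS7-10 in wild type and 70.6% for DelCBS7-10 in InsCBS5-10. It lowered the share of wild-type CTCF peaks under the unrecorded RAD21 list from 78.4% to 32.4%. With −log10 q of 5 or more, 78.1% of wild-type peaks were found in DelCBS7-10. Starts within 500 bp numbered 48, 40 and 44 for CTCF in wild type, InsCBS5-10 and DelCBS7-10, and 24 and 51 for RAD21 in InsCBS5-10 and the unrecorded list. No paired analysis was possible because each group has 1 library, and for the same reason no library could be left out.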
